A study of Mus musculus with 3 samples.

Results

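The transcripts of 9 cathepsins and of cystatin C, their main secreted inhibitor, were followed through the myeloid cells of mouse brain. The genes Ctsa, Ctsb, Ctsc, Ctsd, Ctsf, Ctsh, Ctsl, Ctss, Ctsz and Cst3 were taken by name, and all 10 were listed in all 3 count tables, among 14221 genes listed in any table. Cells that carried both CD11b and CD45, surface proteins of brain myeloid cells, were sorted after enzymatic digestion of the brain and made into droplet libraries that count the 3' ends of transcripts as unique molecular identifiers (UMIs). There were 2 wild-type libraries from adult mice, WT 1 and WT 2, and 1 library of an MHC class II-deficient animal, which lacks nearly all CD4 T cells. No label states the strain, the sex, the allele behind the deficiency or the age of the deficient animal. The study asked whether microglia need CD4 T cells to reach their adult form.

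Cathepsins are the proteases of the lysosome. Most belong to the cysteine proteases of the papain family (Ctsb, Ctsc, Ctsf, Ctsh, Ctsl, Ctss and Ctsz), while Ctsd is an aspartic protease and Ctsa a serine carboxypeptidase. They are made as inactive precursors, sorted to the lysosome and activated there by acid. Cystatin C, the product of Cst3, leaves the cell and blocks cysteine cathepsins, but not Ctsd or Ctsa. In microglia these enzymes degrade what the cell has engulfed, and in antigen-presenting cells Ctss trims the invariant chain that guards the peptide groove of MHC class II.

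The genes lie apart from each other on mouse chromosomes 2, 3, 7, 9, 13, 14 and 19. Promoter sequences from RefSeq (GRCm38.p6) matched 8 of the 10 genes, and those of Ctsb and Ctsh are named only. Of the 8 genes, 4 (Ctsa, Ctsd, Ctsf and Ctsl) held CACGTG, the E-box of the CLEAR element that TFEB binds in promoters of lysosomal genes, within 250 bases before to 50 bases after an annotated start. The word reads the same on both strands and occurred in 7.15% of 32851 such windows of the genome. The PU.1 core GAGGAA, on either strand (TTCCTC on the other), was found in Ctsc, Ctss and Cst3, and in 28.28% of all windows. A match is only a run of letters, and no binding was measured here. The 250 bases upstream of 4 genes are shown because these genes set the microglial and the border macrophage profiles apart in the values that follow. Capitals mark the E-box in Ctsd and the PU.1 core, in either orientation, in Ctsc, Ctss and Cst3. Each is written 5′ to 3′ on the gene's own strand.
Ctsd, chr7:142387828-142388077, minus strand: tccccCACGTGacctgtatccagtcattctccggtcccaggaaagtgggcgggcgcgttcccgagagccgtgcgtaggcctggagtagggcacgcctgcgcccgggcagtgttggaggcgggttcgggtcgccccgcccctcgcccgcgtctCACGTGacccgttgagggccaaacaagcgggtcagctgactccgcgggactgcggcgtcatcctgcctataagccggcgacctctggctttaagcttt
Ctsc, chr7:88277835-88278084, plus strand: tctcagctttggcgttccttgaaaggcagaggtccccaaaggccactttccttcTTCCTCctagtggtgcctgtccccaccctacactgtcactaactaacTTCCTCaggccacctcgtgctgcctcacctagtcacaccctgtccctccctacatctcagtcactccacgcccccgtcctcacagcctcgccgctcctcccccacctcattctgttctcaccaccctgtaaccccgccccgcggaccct
Ctss, chr3:95526536-95526785, plus strand: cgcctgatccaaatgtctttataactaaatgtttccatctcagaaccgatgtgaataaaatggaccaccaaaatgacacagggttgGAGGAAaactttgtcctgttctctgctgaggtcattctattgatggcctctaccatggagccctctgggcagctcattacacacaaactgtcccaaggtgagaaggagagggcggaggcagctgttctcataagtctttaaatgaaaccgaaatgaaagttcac
Cst3, chr2:148875513-148875762, minus strand: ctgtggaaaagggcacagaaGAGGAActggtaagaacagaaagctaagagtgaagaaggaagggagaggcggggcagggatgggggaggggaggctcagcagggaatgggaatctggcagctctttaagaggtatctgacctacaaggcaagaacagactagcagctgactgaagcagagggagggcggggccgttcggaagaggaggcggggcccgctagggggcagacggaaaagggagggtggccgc
In Ctsd the E-box starts 245 and 98 bases before the start site. In Ctsc the PU.1 core starts 196 and 149 bases before it, in Ctss 164 bases and in Cst3 230 bases before it.

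The tables held 4589, 4815 and 2278 cell barcodes for WT 1, WT 2 and the deficient library, of which 4340, 4667 and 2257 cells passed the filters, with median depths of 3384.5, 3338 and 2824 UMIs. H2-Aa, H2-Ab1 and H2-Eb1, the MHC class II chains, were listed in both WT libraries at 162 to 258 CPM over all cells and were not listed in the deficient library. Absence from a table is no measured 0, since the filter that set which genes are listed is not stated. Between 13 and 30 barcodes were shared by a pair of libraries. Classes were set per cell from marker UMIs that include no cathepsin and no Cst3: 3914, 4405 and 2193 microglia, 30, 24 and 7 border macrophages, 53, 45 and 24 monocytes and 273, 134 and 17 neutrophils in WT 1, WT 2 and the deficient library. A threshold 1.5 times as strict kept 52, 40 and 23 of these monocytes and 27, 21 and 6 of the border macrophages. All levels are CPM, the UMIs of a gene scaled to a common total of all UMIs of that class in 1 library. Because each transcript is counted once at its 3' end, CPM was compared between genes without dividing by length. CPM is a share of a class's RNA and says nothing of RNA per cell.

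In microglia, Cst3 transcripts outnumbered those of every cathepsin. Cst3 stood at 64427 CPM in WT 1, 68149 in WT 2 and 74037 in the deficient library, which is 6.44%, 6.81% and 7.40% of all microglial UMIs. Every microglial cell of each library had at least 1 Cst3 UMI. The 9 cathepsins together made up 2.64%, 2.70% and 2.77% of the UMIs.

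Ctsd, the aspartic protease that degrades bulk lysosomal protein, was the most abundant cathepsin of microglia at 10997, 11144 and 11696 CPM in WT 1, WT 2 and the deficient library. Ctss, which works up to neutral pH, followed at 7455, 7633 and 7718 CPM. Together they made up 69.9%, 69.5% and 70.2% of all cathepsin UMIs, so the other 7 shared the rest. Ctsb, an endopeptidase that can also clip dipeptides from the carboxyl end, came next at 2322, 2363 and 2365 CPM. Ctsz, a carboxypeptidase, stood at 1818, 1947 and 1968 CPM. These first 4 enzymes kept their places in every library, and each was separated from the next by more than the range of the libraries.

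The lower part of the order was closer. Ctsl, an endopeptidase, stood at 1117, 1130 and 1136 CPM, and Ctsh, an aminopeptidase, at 943, 975 and 1029 CPM. Ctsa, which also shields lysosomal neuraminidase and beta-galactosidase from breakdown, stood at 780, 847 and 825 CPM. Ctsc, the dipeptidyl peptidase that activates granule serine proteases, stood at 682, 719 and 634 CPM. Ctsf, which can process the invariant chain in macrophages, was lowest at 265, 275 and 286 CPM. No neighbours in this order overlapped in their ranges, and all 3 libraries gave the same order of the 9 enzymes.

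**Figure D1:**
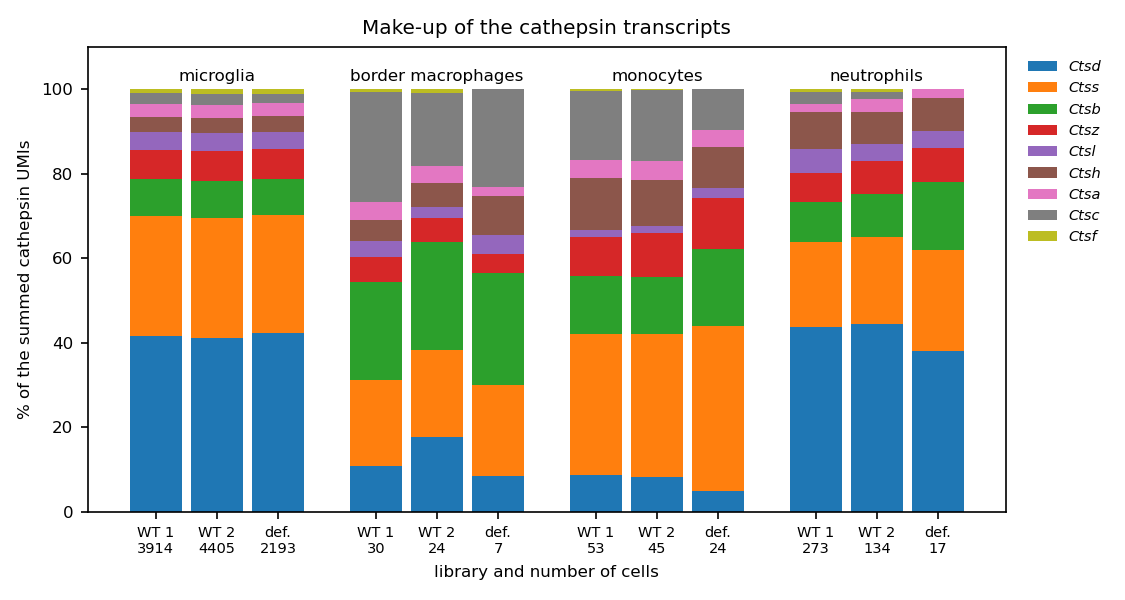
Share of each cathepsin in the summed UMIs of the 9 cathepsins (%, vertical axis), 1 stacked bar per library for each of the 4 cell classes, with the number of cells under each bar. Ctsd and Ctss fill 69.5% to 70.2% of each microglial bar, while Ctsb and Ctsc fill 42.8% to 49.6% of the bars of border macrophages.

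The spread over cells was measured after thinning each microglial cell to 1000 UMIs, a depth that left out 56, 52 and 36 shallower cells. Cst3 had a median of 62, 67 and 72 UMIs per thinned cell in WT 1, WT 2 and the deficient library, with 10% of cells at or below 37, 41 and 43 and 10% at or above 92, 97 and 103. Its variance was 7.54, 7.22 and 7.95 times its mean. The same ratio was 2.25, 2.29 and 2.43 for Ctsd and 1.63, 1.57 and 1.63 for Ctss. It lay between 0.997 and 1.53 for the other 7 genes, where 1 is the value of counting noise alone. At an equal relative spread over cells, this ratio is larger for a gene with more UMIs. Cst3, Ctsd and Ctss had the most UMIs per thinned cell, in that order. The ratios therefore do not rank the genes by relative spread, and a value near 1 at few UMIs does not show that spread was absent. Most pairs of genes were only weakly correlated over the thinned cells (median Pearson r of 45 pairs 0.03, 0.03 and 0.04). Cells of a library share free RNA, and counting noise at 1000 UMIs pulls r towards 0, most for genes of few UMIs. The highest pair in each library was Ctss with Cst3 (r = 0.28, 0.28 and 0.24) and the lowest was Ctsc with Cst3 (r = -0.06, -0.10 and -0.12).

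The deficient library was then set against WT in microglia. None of the 10 genes passed the test, in either direction, where 6.89% of all 11885 genes tested did (819 genes, of which 137 or 1.15% were higher and 682 or 5.74% lower). The test was edgeR's quasi-likelihood test on UMIs summed per library, with Benjamini-Hochberg adjustment over all genes at 0.05. It rests on the spread of the WT pair, with 1 residual degree of freedom, and takes the lone deficient library to vary like WT. DESeq2 called 0 members too, and neither tool gave any member an unadjusted p under 0.05 (0 and 0 genes).

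Cst3 had the largest fitted difference, 66288 ± 2632 CPM (SD, n = 2) in WT against 74037 CPM in its deficient counterpart (log2 fold change 0.17, SE 0.20, adjusted p = 0.70, edgeR). Ctsc was the only member below both WT libraries, at 700.5 ± 25.6 CPM (SD, n = 2) against 634 CPM (log2 fold change -0.14, SE 0.11, adjusted p = 0.54). Ctsd was at 11071 ± 104 CPM (SD, n = 2) in WT against 11696 CPM (0.09 on the log2 scale, SE 0.15, adjusted p = 0.80). The other 7 log2 fold changes lay between 0.02 and 0.11. The deficient value lay above both WT values for 8 members and below both for 1, where 38.9% and 41.7% of all genes tested did so. The median log2 fold change was 0.06 over the members and -0.00 over all genes.

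Other measures differed between these libraries. The summed level of 14 immediate early genes in microglia was 17772, 11890 and 7753 CPM in WT 1, WT 2 and the deficient library, and that of 13 neutrophil markers, of which 13, 13 and 11 had a UMI, was 1263, 686 and 50.2 CPM. The 12 microglial markers summed to 37224, 39173 and 37542 CPM. Their part in the small differences of the members was not tested. Among resting microglia, which are low in immediate early and other state genes, 0 members passed as well, and Cst3 stood at 70390, 72474 and 77271 CPM there.

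The genes around the enzymes were counted against the same shares of all genes, 1.15% higher and 5.74% lower. Among 25 other cathepsins and lysosomal proteases, 10 could be tested and 1 rose, Ctse, a non-lysosomal aspartic protease, from 0.428 and 0.126 CPM in WT 1 and WT 2 to 4.21 CPM (log2 fold change 3.93, SE 0.57, adjusted p = 0.0026). Lgmn, the asparagine endopeptidase that cuts several cathepsins into their mature chains, was the most abundant of that list at 5598, 6257 and 6210 CPM and did not pass (adjusted p = 0.83). Of 29 cystatins and other inhibitors, 7 could be tested. The most abundant was Cstb, the cytosolic cystatin B, at 97.0, 113 and 108 CPM, which did not pass (adjusted p = 0.89), nor did the other 6. Of 33 genes for sorting and processing of lysosomal enzymes, 31 could be tested, 0 rose and 2 fell (6.45%), a share near that of all genes. The larger change was in Lamp1, a major protein of the lysosomal membrane, at 1268, 1334 and 152.5 CPM (log2 fold change -3.08, SE 0.13, adjusted p = 2.7e-06). Lamp1 was low in other classes of the deficient library too, with 885, 1408 and 134 CPM in border macrophages and 1176, 814 and 114 CPM in monocytes. Ctse was likewise not raised in microglia alone. It stood at 2.62, 3.21 and 45.5 CPM in monocytes, 8.88, 13.1 and 20.6 in neutrophils and 0, 0 and 44.7 in border macrophages. All these Ctse levels, those of microglia included, rest on few UMIs.

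**Figure D2:**
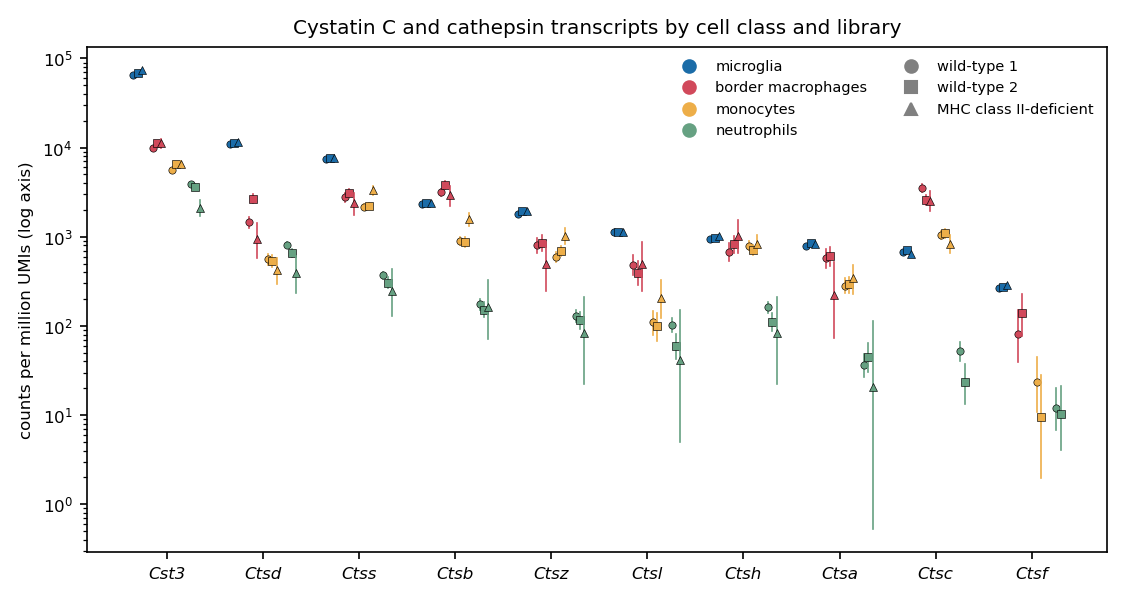
CPM (vertical log axis) of the 10 genes (horizontal axis) in each cell class, 1 point per library with exact Poisson 95% intervals for counting error; points without a UMI are left out. Cst3 and Ctsd are highest in microglia in all 3 libraries, whereas Ctsc is highest in border macrophages.

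Border macrophages, the long-lived macrophages of the meninges, the perivascular spaces and the choroid plexus, had a different mix. Ctsc was higher in them than in microglia, Cst3, Ctsd, Ctss, Ctsl, Ctsf and Ctsz were lower, and Ctsb, Ctsa and Ctsh did not pass. The contrast used the WT libraries, which had at least 10 border macrophages each, with the library as a block. Over all 11113 genes tested, 3.39% were called higher and 2.45% lower, against 1 and 6 of the 10 members. The median log2 fold change was -1.18 over the members and -0.34 over all genes. With library size only, higher calls went from 58.1% to 43.2% of all calls.

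Ctsc stood at 3541 CPM in border macrophages of WT 1, 2596 in WT 2 and 2548 in the 7 cells of the deficient library, or 519%, 361% and 402% of its microglial level. All 3 libraries were thus higher than their own microglia, and the WT contrast gave 2.19 on the log2 scale (SE 0.19, adjusted p = 0.00097, edgeR). The call was made in each of the 9 alternatives that gave a test. Ctsc was 26.2%, 17.3% and 23.2% of the cathepsin UMIs of border macrophages, against 2.59%, 2.66% and 2.29% in microglia.

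Ctsb stood at 3148, 3820 and 2906 CPM in border macrophages, also above the microglia of the same library each time. Its log2 fold change of 0.63 (SE 0.14) had an adjusted p of 0.056, edgeR. It passed in 5 of 9 alternatives, among them DESeq2 and the fit scaled by library size only. Ctss, at 2771, 3093 and 2369 CPM, was near Ctsb, and the order of the enzymes changed between libraries. It began with Ctsc, Ctsb and Ctss in WT 1, with Ctsb, Ctss and Ctsd in WT 2 and with Ctsb, Ctsc and Ctss in the deficient library. Relative to microglia Ctss fell (log2 fold change -1.30, SE 0.14, adjusted p = 0.0033).

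Ctsd stood at 1451, 2660 and 939 CPM, which is 13.2%, 23.9% and 8.03% of its microglial level. The WT libraries differed by more here than for Ctsc, Ctsb or Ctss, and both lay far below microglia (log2 fold change -2.42, SE 0.22, adjusted p = 0.0013). Cst3 stood at 9812, 11285 and 11175 CPM, or 15.2%, 16.6% and 15.1% of the microglial level (log2 fold change -2.59, SE 0.16, adjusted p = 0.00025). Ctsl (484, 396 and 492 CPM) and Ctsz (803, 856 and 492 CPM) fell with log2 fold changes of -1.28 and -1.11 (adjusted p = 0.0087 and 0.0081), and these 2 calls were lost under the stricter class threshold. Ctsf rested on 10, 15 and 0 UMIs, and its log2 fold change of -1.25 (adjusted p = 0.042) lost its call in 4 of 9 alternatives. Ctsa (574, 607.5 and 223.5 CPM) and Ctsh (680, 828 and 1028 CPM) had log2 fold changes of -0.39 and -0.28 that did not pass (adjusted p = 0.27 and 0.43).

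Markers of other cells were present among border macrophages. Their 12 own markers summed to 8599, 8938 and 6213 CPM. The 12 microglial markers summed to 4082, 5210 and 2682 CPM with 12, 11 and 9 of them detected, a median of 6.89%, 10.5% and 3.26% of the microglial level per marker. The range over these markers reached 53.6%, 53.8% and 32.8%, the level of Fcrls, and the next highest marker stood at 18.6% and 20.3% in WT 1 and WT 2. All 6 members that fell lay below Fcrls in both WT libraries. Cst3 lay below the next highest marker too, in both, and Ctsd did in WT 1 only. Immediate early genes summed to 46381, 31571 and 15913 CPM in border macrophages. Their part in the 6 lower values was not tested, so how much of these transcripts the border macrophages made themselves was not measured. The levels of Ctsc and Ctsb lay above those of microglia.

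**Figure D3:**
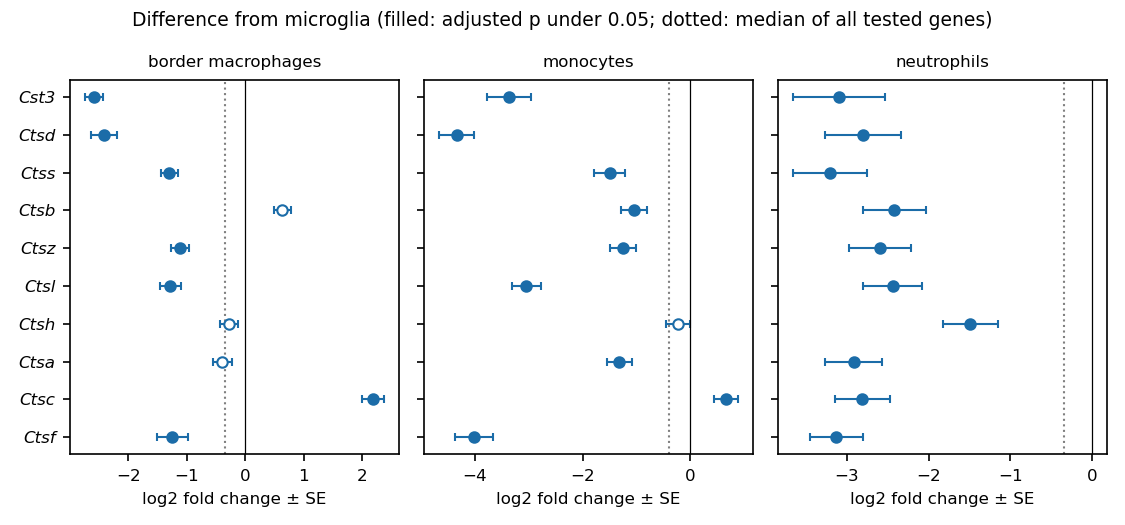
Log2 fold change of each gene between cell classes (horizontal axis, 1 panel per contrast, each with its own scale), with bars of 1 SE; filled points passed an adjusted p of 0.05 by edgeR and the dotted line is the median of all genes tested. Ctsc is the only gene to the right of 0 among filled points for border macrophages (2.19) and for monocytes (0.66) against microglia.

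Monocytes, blood-derived cells that the gate also takes, were led by Ctss at 2158, 2196 and 3348 CPM in WT 1, WT 2 and the deficient library. Ctsc followed in the WT libraries at 1056 and 1093 CPM and stood at 831 CPM in the deficient one. It rose against microglia by 0.66 on the log2 scale (SE 0.23, adjusted p = 0.012, edgeR), where 16.3% of 10585 genes were called higher, and was higher in 3 of 3 libraries. That call was lost with either WT library left out and after thinning of cells. In the other direction 8 members fell, where 22.2% of all genes did, and the median was -1.41 over the members and -0.39 over all genes. Monocytes had median depths of 7012, 7517 and 2480 UMIs in WT 1, WT 2 and the deficient library. Microglia had 3378, 3328 and 2828 UMIs, and the part of depth in the monocyte levels was not tested.

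Ctsd had the largest fitted fall, to 561, 542 and 421 CPM, or 5.10%, 4.86% and 3.60% of its microglial level (log2 fold change -4.34, SE 0.33, adjusted p = 6.8e-38). Ctsf fell by 4.02 on the log2 scale, on 9, 3 and 0 UMIs, and stood at 8.89%, 3.5% and 0% of its microglial level, under Ctsd in WT 2 and the deficient library. With 1 library left out, the fold change ran from -4.47 to -4.09 for Ctsd and from -5.07 to -3.74 for Ctsf. Microglial markers in monocytes stood at 1.17% to 8.20% of their microglial level in WT 1 and 1.68% to 7.19% in WT 2, and the top of each range was Cx3cr1, the fractalkine receptor, which monocytes also carry. The next highest marker stood at 3.62% and 4.14%. Ctsd thus lay under Cx3cr1 but above the other 11 markers in both WT libraries, while Ctsf lay above all 12 in WT 1 and inside the range in WT 2, and the part of free RNA in either was not tested. Cst3 stood at 5572, 6598 and 6547 CPM, or 8.65%, 9.68% and 8.84%, above the highest of those markers in both WT libraries (log2 fold change -3.36, SE 0.40). Ctsl fell to 110, 99.4 and 205 CPM (-3.04). Ctss, Ctsa, Ctsz and Ctsb fell by less, with log2 fold changes of -1.50, -1.32, -1.26 and -1.04. Ctsb (896, 872 and 1571 CPM) lost its call without either WT library and Ctss without WT 1. Ctsh stood at 796, 715 and 831 CPM, nearest to microglia of all members, and did not pass (log2 fold change -0.22, adjusted p = 0.46). The order in the WT libraries was therefore Ctss, Ctsc, Ctsb, Ctsh, Ctsz and Ctsd.

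Neutrophils, short-lived granulocytes, held the fewest cathepsin transcripts, 0.185%, 0.148% and 0.103% of their UMIs. All 10 members were lower than in microglia (edgeR, adjusted p from 3.3e-20 to 3.1e-05), where 30% of 10553 genes were called lower and 24.2% higher. Cst3 stood at 3912, 3612 and 2105 CPM, Ctsd at 812.5, 658 and 392 CPM and Ctss at 371.5, 306 and 248 CPM. The log2 fold changes ran from -3.20 for Ctss to -1.49 for Ctsh, with medians of -2.81 over the members and -0.35 over all genes, and Ctsh lost its call without WT 2. The scaling mattered for their size: scaling by library size only moved the median of all genes by -1.47 and the share of higher among all calls from 44.7% to 11.3%, and DESeq2 size factors moved them by -0.67 and to 23.2%. Members fell under each of these scalings.

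Transcripts of microglial markers were also found in neutrophils. The 12 microglial markers stood in neutrophils at 2.93% to 5.38% of their microglial level in WT 1 and 1.97% to 3.81% in WT 2, against 4.57% to 17.1% and 3.24% to 11.5% for the 10 members. Ctsf lay within the marker range in both WT libraries, Ctss and Ctsa only in WT 1 and Ctsc only in WT 2. The top of the range was Sall1 on 12 UMIs in WT 1 and P2ry13 on 25 UMIs in WT 2. The next highest marker stood at 4.38% and 3.53%, and among the members only Ctsc in WT 2 lay under it. The other 6 members lay above the whole marker range in both, with Ctsh farthest at 17.1% and 11.5%. The part of free RNA in these values was not tested. A Cst3 UMI was found in 100% of neutrophils of WT 1 and WT 2 and a Ctsd UMI in 91.6% and 89.6%, but one of P2ry12, a purinergic receptor that marks microglia, also in 39.2% and 30.6%, at median depths of 2982 and 3036 UMIs in neutrophils and 3378 and 3328 in microglia. After thinning, the shares were 93.9% and 94.3% for Cst3 and 13.3% and 14.8% for P2ry12.

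Border macrophages and neutrophils were also compared directly, both being apart from microglia. In the WT libraries 8 members were higher in border macrophages, where 23.3% of 4425 genes were called higher and 28.6% lower. Ctsc differed most (log2 fold change 5.16, SE 0.26, adjusted p = 1.7e-35, edgeR), then Ctsb (3.21), Ctsa (2.69), Ctsf (2.02), Ctss (1.93), Ctsz (1.57), Ctsh (1.27) and Ctsl (1.26). Cst3 and Ctsd had log2 fold changes of 0.30 and 0.25 that did not pass (adjusted p = 0.36 and 0.34). Scaled by library size only, they were 1.56 and 1.5 and passed (adjusted p = 0.00024 and 3.7e-05), with the median of all genes moved by 1.24 and the share of higher calls from 44.9% to 82.3%. DESeq2 left 5 of the 8 calls. Thinning also left 5, with Ctsl and Ctsz no longer called and Ctsf not tested.

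Inhibitor and enzymes were set side by side as the ratio of Cst3 UMIs to the summed UMIs of the 7 cysteine cathepsins. In microglia it was 4.41, 4.53 and 4.89 in WT 1, WT 2 and the deficient library. Border macrophages had 0.853, 0.962 and 1.14 and monocytes 0.989, 1.16 and 0.838, so cystatin C transcripts were about level with those of the enzymes there. In border macrophages Cst3 itself lay within the range of microglial markers. Neutrophils had 3.89, 4.63 and 3.40, close to microglia, from counts partly within the marker range. No library of border macrophages or monocytes reached the lowest microglial value. The ratio counts transcripts and is no measure of protein or activity.

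**Figure D4:**
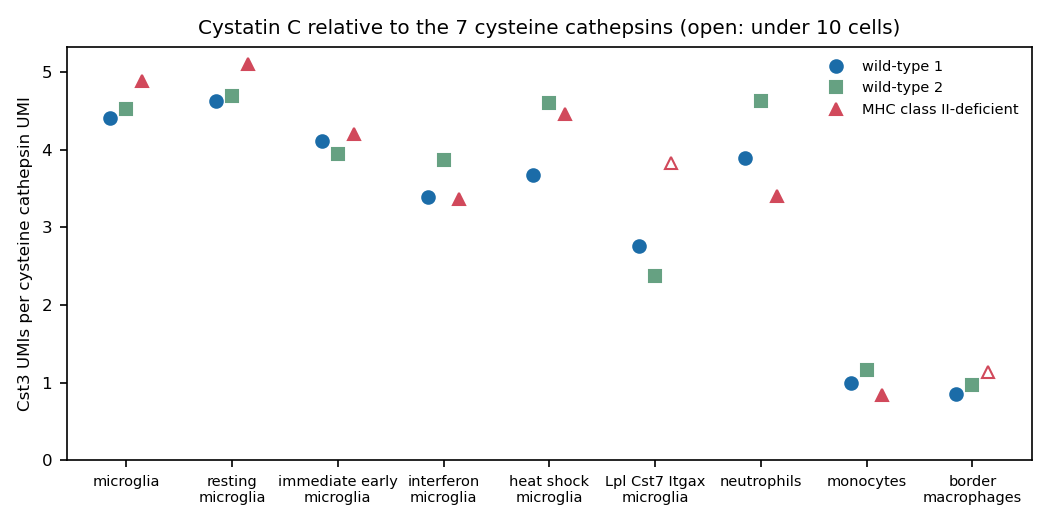
Ratio of Cst3 UMIs to the summed UMIs of the 7 cysteine cathepsins (vertical axis) for each class and microglial state, 1 point per library; open points rest on under 10 cells. Microglia lie at 4.41 to 4.89, and border macrophages and monocytes at 0.838 to 1.16.

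Single genes of the other lists differed between the classes, and the list counts stand beside the shares of all genes called higher and lower (3.39% and 2.45% in border macrophages, 16.3% and 22.2% in monocytes, 24.2% and 30% in neutrophils). Among the 25 other proteases, 8 could be tested in border macrophages, of which 1 rose and 1 fell. Cpq, a plasma carboxypeptidase, rose (82.0 and 82.8 CPM in WT 1 and WT 2 against 16.7 and 20.5 in microglia, adjusted p = 0.029) and Lgmn fell (1410 and 2053 CPM, log2 fold change -1.73, adjusted p = 0.0014). In monocytes 3 of 9 rose and 4 fell, with Napsa, the aspartic protease napsin A, at 809, 782 and 706 CPM against 0.713, 1.58 and 0 in microglia (log2 fold change 9.93), and Lgmn at 189, 382 and 353 CPM (-4.24). In neutrophils 3 of 10 rose and 6 fell. Of the inhibitors, Cstb rose in border macrophages (238, 276 and 447 CPM, log2 fold change 1.36), in monocytes (1.72) and in neutrophils (1.36, from 96.9, 93.2 and 124 CPM, close to its microglial CPM before scaling). Serpinb6a, an intracellular serpin, rose in border macrophages from 6.28 and 5.87 to 41.0 and 92.0 CPM in WT 1 and WT 2, and Serpinb1a, an inhibitor of neutrophil proteases, rose in neutrophils to 438, 542 and 330 CPM. Over that list, 2 of 6 rose and 0 fell in border macrophages, 3 of 5 rose and 1 fell in monocytes and in neutrophils. Of the sorting genes, Cd74, the invariant chain that cathepsins process, had the largest rise in border macrophages (20141, 12785 and 23602 CPM) and in monocytes (5158, 13645 and 14655 CPM), with 2 of 32 (6.25%) and 3 of 32 (9.38%) rising and 1 (3.12%) and 12 (37.5%) falling. In neutrophils 8 of 31 rose (25.8%), about the share of all genes, and 15 fell (48.4%).

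Microglial states were compared with resting microglia of the same library (2249, 3285 and 1759 cells). Among 822, 508 and 198 microglia with high immediate early genes, none of the 10 members passed by edgeR, where 11.5% of 10664 genes were called higher and 6.92% lower. At an unadjusted p under 0.05 there were 2 members by edgeR and 1 by DESeq2, which also called 0. Cst3 stood at 52461, 50627 and 59352 CPM against 70390, 72474 and 77271 in resting cells (log2 fold change -0.21, adjusted p = 0.14), and Ctsd at 8846, 8483 and 9517 against 11783, 11670 and 12016 CPM (-0.17, adjusted p = 0.22). Ctsl stood at 1127, 1146 and 1104 against 1104, 1130 and 1127 CPM (0.24, adjusted p = 0.079). Every library had less Cst3 and Ctsd as a share of UMIs, but the call turned on the scaling. With library size only, the median of all genes moved by -0.22 and higher calls went from 62.3% to 20.9% of all calls. Under that scaling 7 members fell (Cst3 by 0.44 and Ctsd by 0.40 on the log2 scale), and the log2 fold change of Ctsl was only 0.0069. Without the deficient library, Ctsl rose (0.24, adjusted p = 0.018) and Cst3 and Ctsd fell (-0.25 and -0.22, adjusted p = 0.015 and 0.031). The ratio of Cst3 to cysteine cathepsins was 4.11, 3.95 and 4.20, under that of resting cells in each library (4.63, 4.70 and 5.12). Of the other proteases Scpep1, a serine carboxypeptidase, rose in this state (log2 fold change 0.60, adjusted p = 0.0067), and of the inhibitors Cstb (0.49, adjusted p = 0.0062).

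Interferon microglia, 31, 29 and 26 cells with high interferon-stimulated genes, had less Cst3. It stood at 62375, 64814 and 58757 CPM, below resting cells in 3 of 3 libraries, and fell by 0.31 on the log2 scale (SE 0.05, adjusted p = 1.7e-07, edgeR). Ctsd, at 10700, 11354 and 9326 CPM, fell by 0.24 (adjusted p = 0.017). These were 2 of 10 members, where 0.3% of 10012 genes were called lower and 1.14% higher. The Cst3 call was made in 8 of 11 alternatives and lost with DESeq2, without the library block and without the deficient library (then -0.22, adjusted p = 0.092). The Ctsd call was made in only 3 of 11. It was lost in those same settings and also with DESeq2 size factors, the stricter threshold, library size only, without cells of high UMI count and without WT 1. Ctss stood at 10107, 8975 and 9030 CPM against 7843, 7879 and 7761 in resting cells and Ctsc at 973, 866 and 929 against 695, 730 and 625, higher in each library. They did not pass (log2 fold change 0.19 and 0.37, adjusted p = 0.19 and 0.095) but did with DESeq2 size factors (0.29 and 0.46, adjusted p = 0.0045 and 0.0085). The ratio of Cst3 to cysteine cathepsins was 3.39, 3.88 and 3.37, again under that of resting cells in each library.

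**Figure D5:**
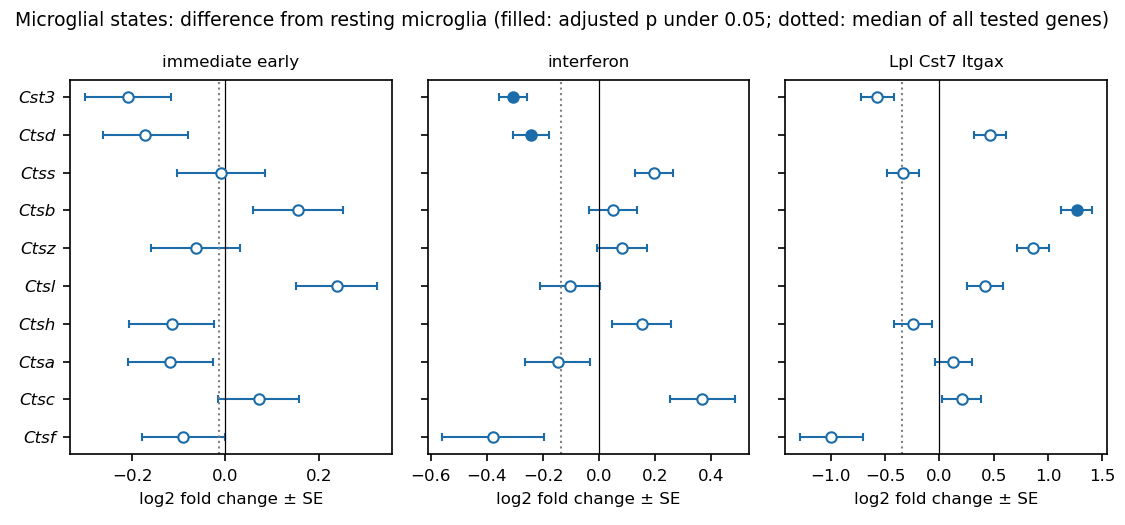
Log2 fold change of each gene in 3 microglial states against resting microglia (horizontal axis, own scale per panel), with bars of 1 SE; filled points passed an adjusted p of 0.05 by edgeR and the dotted line is the median of all genes tested. Ctsb stands out in the Lpl Cst7 Itgax state at 1.26, and Cst3 (-0.31) and Ctsd (-0.24) are the filled points of the interferon state.

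Microglia with Lpl, Cst7 and Itgax, genes of a state known from ageing and disease, were rare, with 12, 12 and 5 cells, and 19, 19 and 7 cells lay within 25% of the threshold on either side. Ctsb stood at 6182, 6837 and 5057 CPM in them against 2343, 2366 and 2286 CPM in resting cells, more in 3 of 3 libraries. The WT contrast gave 1.26 on the log2 scale (SE 0.15, adjusted p = 0.023, edgeR), the only call among the members, where 0.195% of 10234 genes were called higher and 0.0391% lower. The call was made in 7 of 8 alternatives and lost after thinning (0.76, adjusted p = 0.88), when no gene at all passed. Ctsz stood at 4082, 4177 and 3618 CPM against 1927, 2026 and 1988 (0.86, adjusted p = 0.075) and passed in 7 of those 8. After thinning, the log2 fold change of Ctsz was only 0.066 and did not pass (adjusted p = 0.92, edgeR).

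Ctsd stood at 17257, 20186 and 17025 CPM in this state, above resting cells in each library, and did not pass (log2 fold change 0.47, adjusted p = 0.43). Cathepsins made up 3.94%, 4.35% and 3.96% of UMIs against 2.78%, 2.80% and 2.80% in resting cells. Within them Ctsb took 15.7%, 15.7% and 12.8% and Ctss 17.3%, 17.3% and 22.2%. The ratio of Cst3 to cysteine cathepsins was 2.76, 2.37 and 3.83. Of the sorting genes 2 of 31 rose, with Cd63, a tetraspanin of late endosomes, at a log2 fold change of 2.02 (adjusted p = 0.003). Cst7, cystatin F, is one of the genes that set the state. Microglia with high heat shock genes (23, 37 and 26 cells) were described without a test, and Ctsd stood there at 11644, 11809 and 11821 CPM.

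Whether the class and state contrasts differed between the deficient library and WT was tested as an interaction. No member passed for monocytes, neutrophils, immediate early or interferon microglia by edgeR, where 52 of 11032, 97 of 10886, 56 of 11069 and 0 of 10675 genes did. At an unadjusted p under 0.05 there were 0, 3, 2 and 2 members. The lowest adjusted p of a member was 0.55, for Ctsb in immediate early microglia (edgeR). For Cst3 and Ctsd, the members called lower in interferon microglia, the fitted interaction there was -0.29 and -0.34 on the log2 scale. Both thus fell further in the lone deficient library than in WT. Border macrophages and the Lpl Cst7 Itgax state were too few in the deficient library for this test.

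The gene whose level followed each member most closely was found over 25 sums (classes and states of the 3 libraries with at least 10 cells, on log2(CPM + 10)), among 5772 genes. Ctsd was nearest to Trem2 (r = 0.99), a lipid receptor of microglia, and Cst3 to Cx3cr1 (0.99), the fractalkine receptor. Ctss and Ctsz were nearest to Ly86 (0.99 and 0.98), and Ctsa and Ctsb to Cd68 (0.98 and 0.97), a lysosomal membrane protein of macrophages. Ctsc was nearest to Nrros (0.97), Ctsf to Ltc4s (0.99), Ctsh to Pld4 (0.99) and Ctsl to Lap3 (0.98). Marker genes were not left out of the candidates. Cx3cr1 is one of the microglial markers that set the classes, so its likeness to Cst3 is not independent of that cut. The sums share libraries and free RNA, and the values only describe likeness.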

How the data were processed

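Each library has 1 deposited table of raw UMI counts, whole numbers with genes in rows and barcodes in columns, which the authors did not normalize. Per the submitters' processing notes, Cell Ranger 3.0 and Seurat 2.2 were used with mm10. Their filters are not stated. The members and gene lists were chosen with earlier results of these data known, and class thresholds after the tables had been seen.

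A cell was kept with at least 500 UMIs, 200 genes and a mitochondrial share of at most 10%. Microglia had at least 1% of UMIs in 12 microglial markers, with 6 or more detected, and passed no other class's threshold. Cells passing a second class's threshold as well (40, 27 and 0) were left out as possible doublets, since no doublet caller was run, and 30, 32 and 16 cells stayed unassigned. The other classes had a microglial share under 1% and at least 5% (neutrophils, 4 markers) or 0.15% (border macrophages and monocytes, 3 markers) of UMIs in their own markers. States needed 2% (immediate early, with resting under 1%) or 0.5% (heat shock, with resting under 0.3%). The interferon state needed 0.25% with 4 markers and the Lpl Cst7 Itgax state 0.1% with 2 markers. Cells with more than 1 of the immediate early, interferon and Lpl Cst7 Itgax states were left out. Heat shock was not counted in this, so those states can hold cells above its threshold. The leading genes of these states are their markers and are no result.

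UMIs were summed per library and class (at least 10 cells) and tested with edgeR 4.0.16 in R 4.3.3 (quasi-likelihood, TMM, filterByExpr, Benjamini-Hochberg). Class and state contrasts kept the library as a block, because both sums come from 1 mouse. The series' design text gives the WT libraries as different mice, and p-values cover these libraries only. Each contrast rests on few libraries, and edgeR estimates the spread with information shared over all genes. A very small p is therefore no measure of the spread between mice alone. Where a gene had no UMI in 1 library of a class, its fitted value is given without a bound. In simulated counts, 98% to 100% of genes changed by 1 or 2 on the log2 scale were called between the genotypes (11769 genes). The simulation gave all genes 1 common dispersion and took the deficient library to vary like WT. Changes smaller than 1 were not simulated, so it does not cover differences as small as those of the members between the genotypes. For border macrophages against microglia (10866 genes) 24% and 92% were called at 1 and 2 and 18% and 32% at -1 and -2, and for the Lpl Cst7 Itgax state (10054 genes) 10%, 54%, 4% and 18%.

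Named genes were all members, the 3 most abundant of each list, the called list member with the largest fold per contrast and the nearest profile of each member. Not every gene the rule takes is described. Intervals are exact (95%) and cover counting error only. Alternatives were other scalings, DESeq2 1.42.0, no count filter, stricter cells and thresholds, thinning to 1000 UMIs, cells of high UMI count left out, Leiden classes (scanpy 1.11.5), no block and each library left out. Library size scaling, and contrasts with the deficient library added, were chosen after seeing the data.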

Additional observations from a re-analysis of the deposited data

Results flagged for a closer look

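In the Lpl Cst7 Itgax state, both members named here moved one way in the WT libraries and the other way in the deficient one, in log2 ratios of CPM against resting microglia. Ctss had ratios of -0.20 in WT 1, -0.07 in WT 2 and 0.176 in the deficient library. Cst3 had -0.28 and -0.46 in the WT libraries and 0.0362 in the deficient library. The deficient value rests on 5 cells, and the difference between the genotypes was not tested.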

How the results depend on the processing

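Of 868 recomputed values, 769 kept their direction and, where tested, their side of the threshold, 30 gained a call, 30 lost one, 18 without a test moved by over 1 SE and 21 changed sign. No member was called between the genotypes under any alternative run, and in neutrophils all 10 stayed lower, but Ctsh lost its call without WT 2. In border macrophages against microglia, 2 members in place of 1 were higher with DESeq2, no count filter, no cells of high UMI count, or library size only, and the stricter threshold left 3 of 6 lower. In monocytes the 1 higher call became 0 after thinning and without either WT library (range 0 to 1 with each library left out). Against neutrophils, border macrophages had 5 members higher in place of 8 with DESeq2 and after thinning, where Ctsf was not tested. Immediate early microglia gained 7 lower calls with library size only, and 1 higher and 2 lower without the deficient library. In interferon microglia, 2 members were higher with DESeq2 size factors and library size only. The 2 lower calls became 1 with DESeq2 size factors, a stricter threshold, no cells of high UMI count or library size only, and 0 with DESeq2; leaving out 1 library gave 0 to 2. In the Lpl Cst7 Itgax state, 2 members were higher in place of 1 with either DESeq2 setting, no count filter, no cells of high UMI count, library size only or the deficient library added (which also gave 1 lower), and 0 after thinning. Thinning leaves fewer UMIs and the stricter threshold fewer cells, but the cause was not tested.

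Without the library as a replicate block, members higher went from 1 to 2 in border macrophages and in the Lpl Cst7 Itgax state (with 1 lower), and lower calls from 2 to 0 in interferon microglia; the block changed no other count of members by over 1.5 times. No paired analysis was possible for the deficient library against WT because the deficient group has 1 library with no number.

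The ratio of Cst3 to cysteine cathepsins averaged 1.08 in WT monocytes and was 1.22 after thinning and 2.08 in Leiden classes, where 1 cluster held monocytes with border macrophages and other cells. In neutrophils it was 4.26 and 4.87 after thinning. Leiden gave no border macrophage class, the stricter threshold left under 10 cells of the Lpl Cst7 Itgax state, and neither was run.

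No value that changed sign was called where a test was run. In the Lpl Cst7 Itgax state after thinning they were Ctsa -0.62, Ctsc -0.18, Ctsd -0.0847 and Ctsl -0.17. In interferon microglia they were Ctsb -0.0555, Ctsh -0.48, Ctss -0.10 and Ctsz -0.13 after thinning and Ctsb -0.11 and Ctsz -0.10 with the stricter threshold. In immediate early microglia they were Ctsb -0.0771 and Ctsc -0.16 with library size only. There Ctss ranged from -0.0805 to 0.0489 and Ctsz from -0.148 to 0.000795 with each library left out. Ctsd in border macrophages against neutrophils was -0.32 after thinning and -0.22 without cells of high UMI count, and ranged from -0.0586 to 1.11 with each library left out. Between the genotypes, Ctsa and Ctsb were -0.0200 and -0.0241 in resting microglia, and Ctsa ranged from -0.0387 to 0.0804 with each WT library left out.

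Higher or lower calls over all genes moved by over 1.5 times as follows. Between the genotypes 137 and 682 became 52 and 434 (DESeq2), 220 and 807 (Leiden) or 310 and 791 (resting only). In border macrophages 377 and 272 became 332 and 174 (DESeq2 size factors), 173 and 82 (stricter), 111 and 161 (thinned), 558 and 638 (no high UMI), 588 and 564 (no block), 560 and 736 (library size) or 525 and 554 (deficient added). In monocytes 1729 and 2353 became 1365 and 1348 (DESeq2), 572 and 984 (thinned), 1077 and 1166 (no WT 1) or 1075 and 1230 (no WT 2). In neutrophils 2555 and 3163 became 1627 and 5384 (DESeq2 size factors), 1117 and 3147 (DESeq2), 1308 and 1714 (thinned), 1425 and 2699 (no high UMI), 1020 and 7984 (library size), 1062 and 857 (no WT 1) or 1505 and 1651 (no WT 2). Between border macrophages and neutrophils 1032 and 1265 became 316 and 471 (DESeq2), 283 and 421 (thinned), 2362 and 507 (library size) or 572 and 657 (deficient added). In immediate early microglia 1222 and 738 became 747 and 143 (DESeq2), 654 and 200 (thinned), 765 and 351 (no block), 771 and 2918 (library size), 775 and 194 (no WT 1) or 688 and 197 (no WT 2). In interferon microglia 114 and 30 became 125 and 16 (DESeq2 size factors), 93 and 0 (DESeq2), 39 and 62 (thinned), 78 and 2 (no block), 80 and 5 (no WT 1) or 38 and 0 (no deficient library). In the Lpl Cst7 Itgax state 20 and 4 became 57 and 3 (DESeq2), 72 and 101 (no count filter), 0 and 0 (thinned), 67 and 134 (no high UMI), 122 and 185 (no block), 84 and 28 (library size) or 99 and 195 (deficient added).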
